A study of Mus musculus with 57 samples.

Results

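The mitochondrial ribosome is built from proteins that the nucleus encodes, and their genes are named Mrpl for the large subunit and Mrps for the small one. The genes described here are those listed with a mouse symbol of that form and annotated as protein-coding, without pseudogene symbols. They number 78 of the 18088 genes in the deposited table, and all 78 passed the filter on low values. Of these, 51 encode proteins of the large subunit and 26 of the small subunit. The remaining gene, Mrps36, carries the name of the small subunit but encodes a component of the 2-oxoglutarate dehydrogenase complex. Mrps30 and Mrps18a were counted with the large subunit, where their proteins are found despite their names.

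Prefrontal cortex came from C57BL/6J mice carrying 1 copy of the Shank3 delta C allele (heterozygous, HT) or none (wild type, WT), and its messenger RNA was sequenced. Shank3 is a scaffold gene of excitatory synapses. Pups received lithium, fluoxetine or vehicle through their mothers' milk for 3 weeks, between postnatal days 3 and 24, and were examined on day 25. HT lithium, HT fluoxetine and HT vehicle mice and their WT counterparts under the same 3 treatments, each split by sex, formed 12 groups. The groups held 5 libraries each, except for HT lithium males and WT lithium females with 4 each and HT vehicle males with 3, which makes 56 libraries. Litters are not labelled, and every p-value below takes each pup as a separate unit even where a dam's milk reached several of them.

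Mitochondria keep their own ribosome, which translates the few messages of mitochondrial DNA into core subunits of the respiratory chain and the ATP synthase. Some of its proteins have counterparts in bacterial ribosomes and others were added in the mitochondrial lineage. In neurons, synaptic transmission depends on ATP that the respiratory chain helps to supply.

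The promoters of the 4 genes with the smallest p in any comparison with the sexes averaged are shown, because those genes lead the drug results below. All 4 encode proteins without a bacterial counterpart, Mrpl39 and Mrpl40 in the large subunit and Mrps22 and Mrps31 in the small one. Each window runs from 250 bases before to 50 after the annotated start, is taken from RefSeq's sequences for GRCm38.p6, and reads 5′ to 3′. That start is RefSeq's, and for Mrpl39 and Mrpl40 it lies 498 and 225 bases inside the gene as GENCODE draws it. Capitals mark letters known for ETS factors (CCGGAAG), YY1 (AAGATGGC), SP1 (GGGCGG) or nuclear respiratory factor 1 (NRF1), searched on both strands. The NRF1 letters are GCGC, 2 bases and GCGC again, with AT as the 2 bases in the strict form and any bases in the relaxed one.
Mrpl39 promoter, chr16:84735195-84735494, minus strand: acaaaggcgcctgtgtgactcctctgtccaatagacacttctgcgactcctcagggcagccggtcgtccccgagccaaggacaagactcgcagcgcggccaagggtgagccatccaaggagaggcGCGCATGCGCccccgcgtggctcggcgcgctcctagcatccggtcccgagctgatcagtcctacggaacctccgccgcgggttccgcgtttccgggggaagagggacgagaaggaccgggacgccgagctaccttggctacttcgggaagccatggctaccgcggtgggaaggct
Mrps22 promoter, chr9:98601630-98601929, minus strand: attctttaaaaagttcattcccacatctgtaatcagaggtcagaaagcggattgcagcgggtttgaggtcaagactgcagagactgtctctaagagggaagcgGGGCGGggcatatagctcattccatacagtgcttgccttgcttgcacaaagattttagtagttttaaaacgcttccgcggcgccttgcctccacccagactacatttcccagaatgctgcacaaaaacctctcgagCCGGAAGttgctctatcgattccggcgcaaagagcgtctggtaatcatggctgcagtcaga
Mrpl40 promoter, chr16:18876588-18876887, minus strand: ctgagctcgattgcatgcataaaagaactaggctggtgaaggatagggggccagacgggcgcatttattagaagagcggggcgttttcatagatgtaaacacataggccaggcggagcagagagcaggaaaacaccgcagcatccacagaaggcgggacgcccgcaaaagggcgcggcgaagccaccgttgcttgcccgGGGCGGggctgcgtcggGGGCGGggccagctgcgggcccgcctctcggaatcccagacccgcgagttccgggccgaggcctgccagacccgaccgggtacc
Mrps31 promoter, chr8:22411090-22411389, plus strand: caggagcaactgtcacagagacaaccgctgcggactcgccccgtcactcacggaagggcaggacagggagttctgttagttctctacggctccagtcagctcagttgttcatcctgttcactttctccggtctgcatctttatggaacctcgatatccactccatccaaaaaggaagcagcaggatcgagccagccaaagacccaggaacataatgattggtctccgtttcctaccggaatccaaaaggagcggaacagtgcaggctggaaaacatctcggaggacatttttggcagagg

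The Mrpl39 window held 1 strict NRF1 match, which is also its relaxed match because the relaxed letters contain the strict ones. Mrps22 held 1 ETS and 1 SP1 match, Mrpl40 held 2 SP1 matches and Mrps31 held 0 matches. Windows were found for 69 of the 78 genes, with the first taken for the 3 that have several, and 20 of them start over 100 bases from the GENCODE start of the gene. ETS letters occurred in 25 of these (36.2%), against 16.1% of the windows of 11818 tested protein-coding genes. YY1 letters occurred in 12 (17.4%), against 4.19%. Relaxed NRF1 letters occurred in 14 (20.3%), against 12.4%, and strict ones in 3 (4.35%), against 1.88%. SP1 letters were in 34 (49.3%), against 62.1%, and the median GC content of the windows was 58.3%, against 60.7%. A match describes letters in a window and is not a site of binding.

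In GENCODE's annotation of GRCm38, Mrpl39 lies on chromosome 16 (84717576 to 84735742, minus strand) and Mrpl40 on the same chromosome and strand at 18872018 to 18876862. Mrps22 lies on chromosome 9 (98588730 to 98601660, minus strand) and Mrps31 on chromosome 8 (22411361 to 22429665, plus strand). Many of the 78 genes face another gene across a short stretch of DNA. A protein-coding neighbour on the opposite strand counted if it started up to 1000 bases upstream or up to 250 bases inside. This held for 23 of the 78 genes (29.5%), against 11.1% of 15229 tested protein-coding genes. Mrpl46 and Mrps11, which overlap each other by more, were not counted. Mrps12 and Sars2, the mitochondrial seryl-tRNA synthetase, start 172 bases apart. Mrpl40 and Hira, a histone chaperone gene, start 175 bases apart. Mrpl32 and Psma2, a proteasome subunit gene, start 75 bases apart, and Mrpl49 faces Fau, which encodes a cytosolic ribosomal protein fused to a ubiquitin-like protein.

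Libraries held 22984556 to 35969254 reads over all listed genes. All 6 markers of cortical excitatory neurons were detected in every library, and 0 of 56 libraries went against their labelled sex. Shank3 lay between 5748 and 11197 normalised counts in HT libraries and between 5170.1 and 9844 in WT libraries. The changed stretch of Shank3 is not given in the labels, and its level over the whole gene is no check of genotype. HT vehicle female replicate 1 summed to 52725 normalised counts over 5 choroid plexus markers, against 71.5 to 345 in the other libraries. HT lithium female replicate 5 stood at -1.57 log2 units from the median library in mitochondrially encoded genes. Of the 5 olfactory bulb markers, Eomes was at 0 in at least 1 of the 56 libraries. The 5 summed to between 608 and 10790.2 in HT lithium females and between 275 and 8979 in HT vehicle females. The same sum ran from 250.5 to 14785 in WT fluoxetine females, 555 to 9095 in WT lithium females and 360.2 to 7634 in WT vehicle females. Of 72 comparisons of a marker list between a drug and vehicle within genotype and sex, 3 had ranges that did not overlap, and these stand beside the results below. Their part in the results was not tested beyond the fits that carry the olfactory level or leave out those 2 libraries.

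Transcripts of the 78 genes were short. Their median length was 1327.5 nucleotides, against 3180 for tested protein-coding genes. Mrpl52 (463) and Mrpl33 (478) had the shortest transcripts, and Mrpl17 (7300) and Mrps25 (6073) the longest. Median GC content was 50.01%, against 50.3%. It was lowest in Mrps14 (39.6%) and Mrpl1 (41.6%), and highest in Mrps34 (60.6%) and Mrpl54 (60.4%). Per kilobase of transcript, the median level over all libraries was 415 normalised counts, against 192 for tested protein-coding genes. Levels per kilobase were highest for Mrpl20 (1394), Mrpl42 (1383) and Mrps21 (1381), and lowest for Mrpl17 (87.9), Mrpl1 (98.2) and Mrps35 (99.3). By this measure, messages for proteins of the same particle covered more than 1 order of magnitude. The measure divides by the longest protein-coding transcript, which was not checked to be the one expressed. Mrpl17, lowest per kilobase, had a mean of 641.5 normalised counts, against a median of 653.5 over the 78 genes. By role, the median level per kilobase was 444 for large-subunit genes with a bacterial counterpart, 440.1 for large-subunit genes without one, 400.0 for small-subunit genes with one and 344 for small-subunit genes without one. Mrps36 stood at 710.5. Mrpl23, Mrpl48 and Mrps36 have annotated pseudogenes that could share reads with them, so their values are less certain.

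Across the 12 groups the genes stood highest in vehicle females. The level of a library was taken as the mean over the 78 genes of the log2 deviation from each gene's mean. HT vehicle female libraries had 0.137, 0.166, 0.106, 0.160 and 0.0425, and WT vehicle female libraries had 0.103, 0.102, 0.157, 0.0228 and 0.0622. HT lithium females had 0.00800, -0.137, -0.0739, -0.0305 and 0.0449, and WT lithium females had -0.106, -0.0654, -0.0625 and -0.0513. All WT lithium female libraries lay below all WT vehicle female libraries, whereas HT lithium female replicate 5 lay just above the lowest HT vehicle female library. The group level was 0.122 ± 0.0505 in HT vehicle females and 0.0893 ± 0.0501 in WT vehicle females (SD, n = 5 each). In the other 10 groups it lay between -0.0712 in WT lithium females and 0.0208 in HT lithium males. For 56 of the 78 genes (71.8%) the highest of the 12 group means was that of HT or WT vehicle females, against 17.9% of all 18026 tested genes. In bulk tissue, fewer cells of a type and less RNA per cell cannot be told apart.

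**Figure D1:**
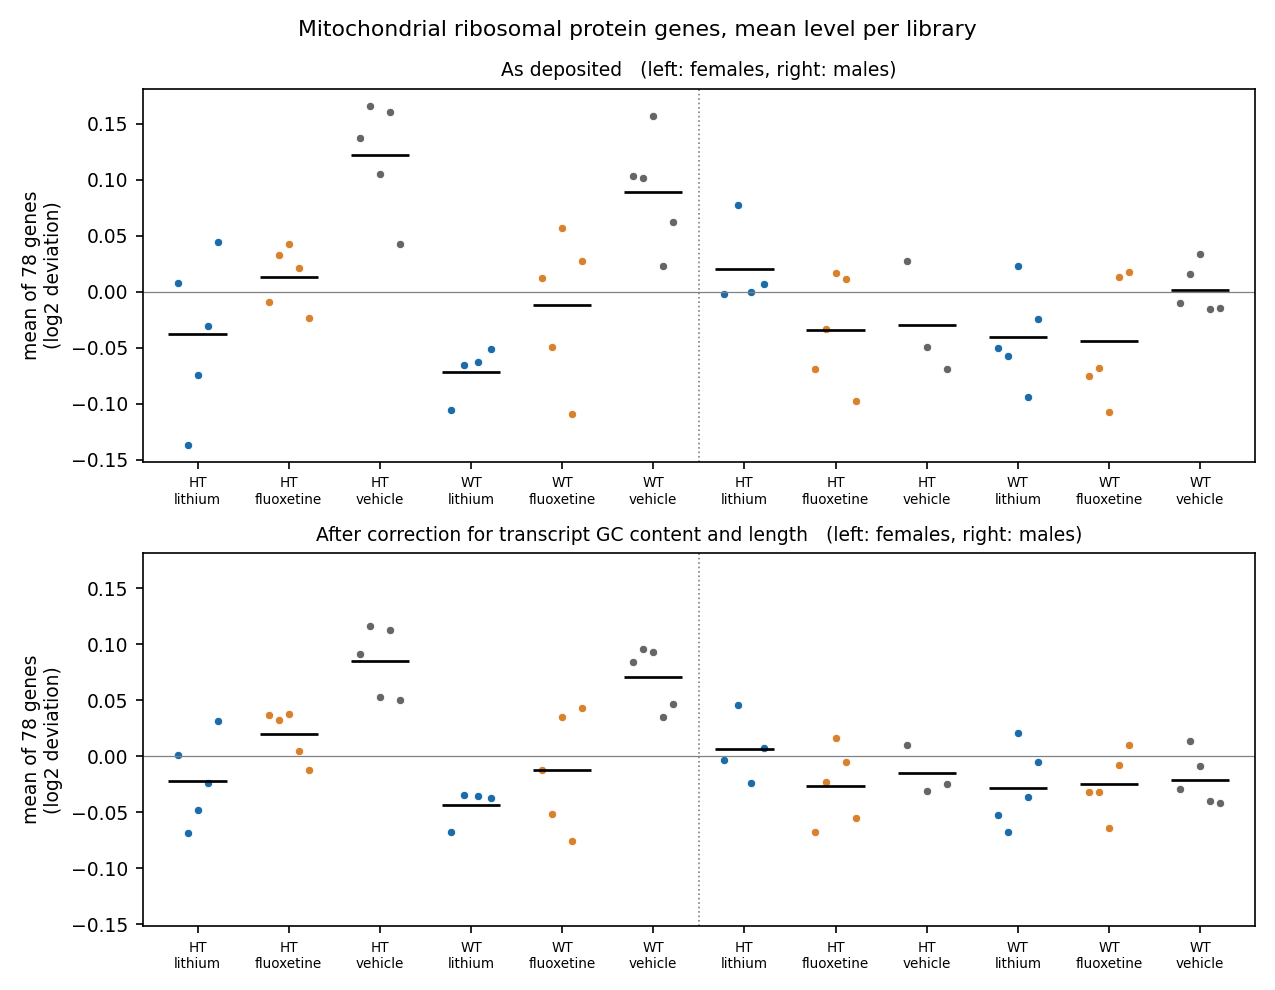
Mean log2 deviation of the 78 genes in each library, by group, as deposited (upper panel) and after correction for GC content and length of the transcript (lower panel); bars are group means. Vehicle females of both genotypes are the highest groups in both panels, at 0.122 (HT) and 0.0893 (WT) as deposited and 0.0846 (HT) and 0.0707 (WT) after the correction.

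Pairs of these genes varied together only weakly over the 56 libraries. Within-group deviations of 3003 pairs had a median Pearson correlation of 0.129, with 69.4% of pairs above 0. Between one of the 78 genes and any other tested gene the median was -0.00174, with 49.7% above 0. The pairs share libraries and depth, so these values are a description.

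Lithium against vehicle, with the sexes averaged, lowered some of these genes in both genotypes and raised 0. A gene was called where limma's two-sided p, adjusted over all 18026 tested genes by Benjamini-Hochberg, was below 0.05, and fold changes are log2 values ± SE of normalised counts plus 1. In HT mice 8 of 78 fell, at a background of 5.06% of all tested genes higher and 4.7% lower. In WT mice 14 of 78 fell, at backgrounds of 7.05% higher and 4.65% lower. The median log2 fold change was -0.05 in HT and -0.10 in WT, and 56 of 78 genes were below 0 in HT and 71 in WT. Over all tested genes both medians were 0.00. Large-subunit genes gave 5 of the calls in HT and 9 in WT, of 51, and small-subunit genes gave 3 in HT and 5 in WT, of 26. Among large-subunit genes without a bacterial counterpart, 22 of 22 were below 0 in WT and 6 of them fell, and 17 were below 0 in HT and 2 fell. Mrps36 was not called, at -0.13 in HT and -0.15 in WT.

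Mrpl39 led in HT, with 452, 502 and 553 normalised counts as lowest, median and highest of 9 lithium libraries, against 545, 613 and 666 in 8 vehicle libraries. A single lithium library reached into the vehicle range, and the change was -0.25 ± 0.05, adjusted p = 0.000338. Mrps22 had 333, 356 and 373 in HT lithium libraries, against 359, 463 and 492 in HT vehicle libraries. Its ranges overlapped only at their edges (-0.28 ± 0.05, adjusted p = 0.000423). Mrps31 changed by -0.31 ± 0.07 (adjusted p = 0.0015) and Mrpl50, a large-subunit protein without a bacterial counterpart, by -0.28 ± 0.06 (adjusted p = 0.00263). Mrpl30, the counterpart of bacterial L30, changed by -0.17 ± 0.05 (adjusted p = 0.0235), and Mrpl47, the counterpart of bacterial L29, by -0.23 ± 0.07 (adjusted p = 0.0287). Mrpl32 (-0.19) and Mrps14 (-0.21), counterparts of bacterial L32 and S14, completed the 8. Without the 2 libraries that stood apart the count was 5, and with the correction for GC content and length it was 2.

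In WT mice Mrpl40 led, with 336, 408 and 463 normalised counts in 9 lithium libraries, against 459, 493 and 572 in 10 vehicle libraries. The ranges touched only at their edges, and the change was -0.29 ± 0.06, adjusted p = 0.000881. Mrps15, the counterpart of bacterial S15, had 396, 434 and 489 in WT lithium libraries, against 484, 510.4 and 561 in WT vehicle libraries, again with a narrow overlap (-0.24 ± 0.06, adjusted p = 0.00268). Mrpl30 changed by -0.21 ± 0.05 (adjusted p = 0.00169) and Mrpl54, without a bacterial counterpart, by -0.30 ± 0.07 (adjusted p = 0.00394). Mrps18c, related to bacterial S18, changed by -0.28 ± 0.07 (adjusted p = 0.00491). Mrpl11, which helps to form the base of the stalk where translation factors bind, changed by -0.18 ± 0.05 (adjusted p = 0.00784). Mrps10, Mrps33, Mrps30, Mrpl48, Mrpl3, Mrpl39, Mrps34 and Mrpl55 fell by between 0.13 and 0.25. Mrpl30 and Mrpl39 are on both the HT and the WT list.

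Within females, 19 of 78 genes fell in HT under lithium, at backgrounds of 5.56% of tested genes higher and 4.94% lower, and 15 fell in WT, at backgrounds of 3.85% higher and 2.77% lower. None rose by limma in either genotype, and at an unadjusted p under 0.05 the counts were 0 higher with 35 lower in HT and 0 higher with 32 lower in WT. Of all tested genes, 12.3% were higher and 11.9% lower by that measure in HT females, and 10.8% higher and 9.07% lower in WT females. edgeR called 20 in HT and 17 in WT. The median log2 fold change was -0.14 in HT females and -0.15 in WT females. Mrps22 had 364, 371, 333, 349 and 348 normalised counts in HT lithium females, against 492, 479, 492, 487 and 448 in HT vehicle females. The ranges were well apart, and the change was -0.44 ± 0.07, adjusted p = 1.12e-05. In WT, Mrps22 had 324, 376, 361 and 347 in lithium females, against 413, 483, 401, 445 and 419.5 in vehicle females. These ranges did not overlap either (-0.29 ± 0.07, adjusted p = 0.00635, a call that ended with the GC and length correction).

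Mrpl39 had 498, 452, 502, 520.3 and 553 normalised counts in HT lithium females, against 630.2, 635, 666, 559 and 664 in HT vehicle females. Every lithium library lay below every vehicle library (-0.32 ± 0.06, adjusted p = 0.000236). Mrpl20, the counterpart of bacterial L20, had 1169, 942, 924, 1028 and 713 in HT lithium females, against 1295, 1462, 1352, 1339 and 1167 in HT vehicle females. The highest lithium library just passed the lowest vehicle library (-0.48 ± 0.09, adjusted p = 0.000327). Mrps18c had 270.3, 217, 261 and 228 in WT lithium females, against 373, 342, 390.5, 273 and 406 in WT vehicle females. Its ranges lay close without overlap, and its change was the lowest of the 78 in that comparison (-0.54 ± 0.10, adjusted p = 0.000768). Mrpl30 had 732, 742, 803 and 812 in WT lithium females, against 1047, 984, 1017, 876 and 876 in WT vehicle females, without overlap (-0.31 ± 0.07, adjusted p = 0.0023, a call that likewise ended with that correction). A fit of the compared groups alone called 2 genes in HT females and 4 in WT females.

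**Figure D2:**
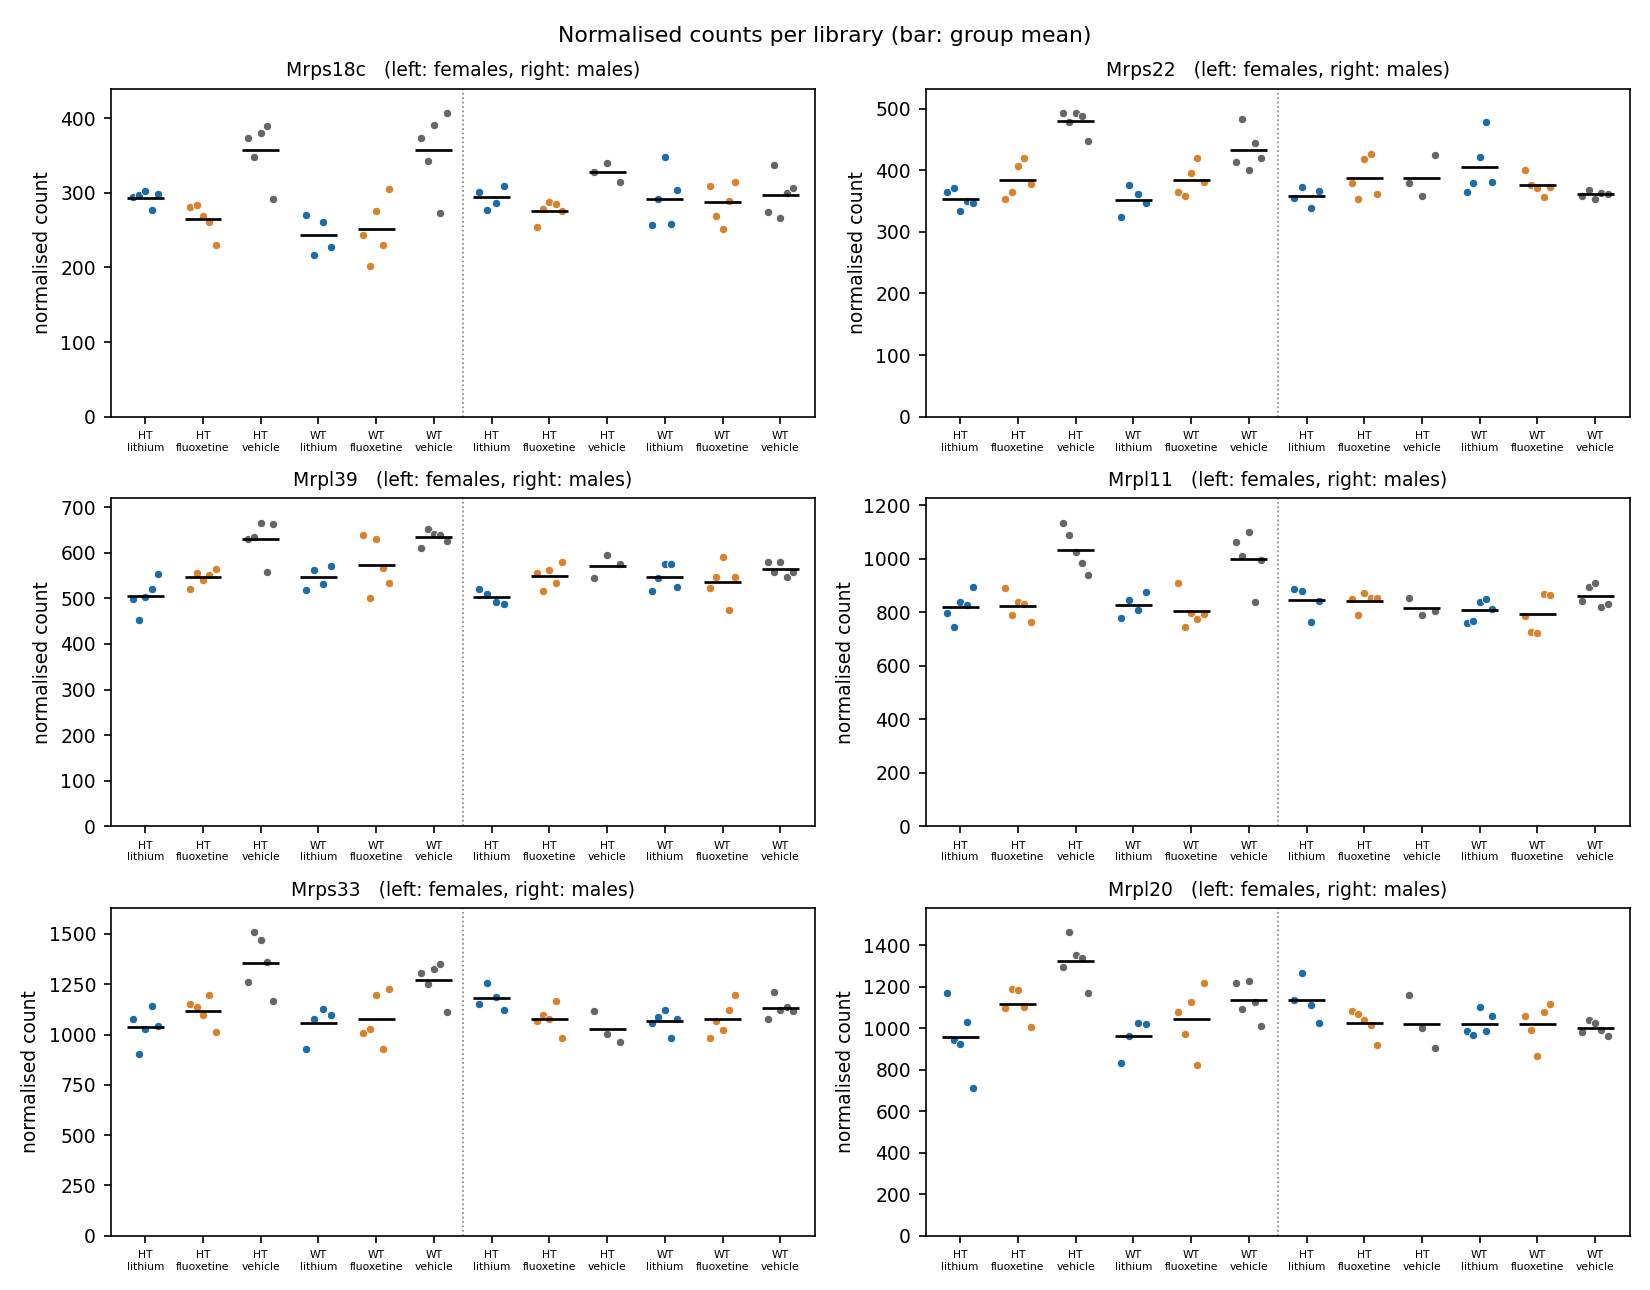
Normalised counts of Mrps18c, Mrps22, Mrpl39, Mrpl11, Mrps33 and Mrpl20 in every library, by group, each point being 1 library. Mrps22 lies between 333 and 371 in HT lithium females and between 448 and 492 in HT vehicle females.

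HT and WT females share no libraries. Lithium lowered 9 genes in both, which are 47.4% of the 19 in HT and 60% of the 15 in WT. They are Mrpl1, Mrpl11, Mrpl30, Mrpl32, Mrpl39, Mrpl41, Mrpl50, Mrps22 and Mrps33, and 69 of 78 genes were below 0 in both. Over all 18026 tested genes, 261 were called lower in both, which are 29.3% of the 891 in HT and 52.2% of the 500 in WT, and 35.2% were below 0 in both. Across the 78 genes the HT and WT effects had a Pearson correlation of 0.51, against 0.36 across all tested genes, given as a description because genes share their libraries. With the GC and length correction this correlation was 0.39, and Mrpl11 and Mrpl50 were called in both. In males the correlation was -0.05 as deposited, with 19 genes below 0 in both, against 0.10 and 26.0% of all tested genes.

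**Figure D3:**
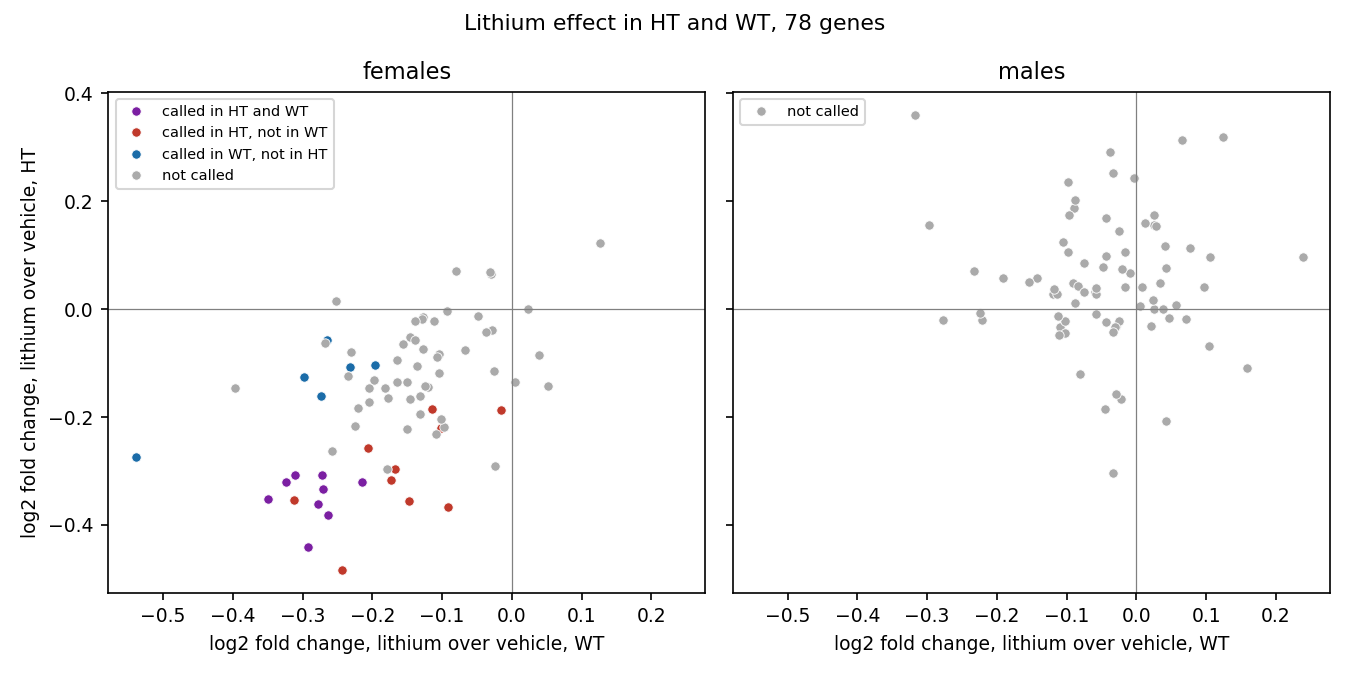
Log2 fold change under lithium in HT against that in WT for each of the 78 genes, in females and in males. In females 69 of 78 genes lie below 0 on both axes, and in males 19 do.

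In males, limma called 0 of the 78 genes under lithium in HT, at backgrounds of 0.00555% higher and 0.0111% lower, and 0 in WT, at backgrounds of 1.51% higher and 0.793% lower. edgeR also called 0 in both, and at an unadjusted p under 0.05 there were 6 higher and 3 lower in HT and 1 higher and 7 lower in WT. Of all tested genes, 5.79% were higher and 5.05% lower by that measure in HT males, and 8.52% higher and 7.10% lower in WT males. The median was 0.04 in HT males and -0.04 in WT males. Mrpl53, without a bacterial counterpart, had the smallest p in HT males, at 0.31 (adjusted p = 0.245), and Mrpl40 in WT males, at -0.28 (adjusted p = 0.056).

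The difference between the sexes was tested itself. In HT the lithium effect in males minus that in females was above 0 for 76 of 78 genes, with a median of 0.18. Over all tested genes that median was -0.00858. Of the 78 genes 2 were called, at a background of 0.161% higher. Mrps33, a small-subunit protein without a bacterial counterpart, had 1154, 1255, 1188 and 1123 normalised counts in HT lithium males, against 1117, 1002 and 961 in HT vehicle males. It had 1076, 903, 1027, 1142 and 1042 in HT lithium females, against 1262, 1508, 1472, 1363 and 1167 in HT vehicle females. Lithium libraries were thus above vehicle libraries in males and below them in females, and the difference was 0.58 ± 0.11, adjusted p = 0.00981. Mrpl20 had 1135, 1268, 1111 and 1023 in HT lithium males, against 1158, 999.7 and 906 in HT vehicle males, which overlapped. Its difference between the sexes was 0.64 ± 0.14, adjusted p = 0.0425. The 6 markers of myelinating oligodendrocytes summed to 61067 to 130453 in HT lithium males and 142582 to 145882 in HT vehicle males. The 6 excitatory neuron markers summed to 170249 to 185901 in HT lithium males and 145162 to 170154 in HT vehicle males. Neither pair of ranges overlapped. The 5 olfactory bulb markers summed to 239 to 827 in HT lithium males and 388 to 3627 in HT vehicle males, with overlap. The part of these markers in the difference was not tested beyond the fits that carry the olfactory level. Both calls ended with the GC and length correction, when the median difference was 0.11. Both calls also ended in the fit of the compared groups alone. Mrps33's call ended without HT vehicle male replicate 2, and likewise without replicate 3. Mrpl20's call also ended with the olfactory level as a covariate, and without any 1 of 11 libraries.

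In WT the lithium effect in males minus that in females was above 0 for 65 of 78 genes, with a median of 0.11. Over all tested genes that median was -0.00877. limma and edgeR called 0, at a background of 0%, with 13 higher and 0 lower at an unadjusted p under 0.05, which 8.63% of all tested genes reached in either direction. Mrps22 had the smallest p, at 0.45 (adjusted p = 0.0943). It had 365, 380.0, 421, 478 and 380.2 normalised counts in WT lithium males, against 358, 368, 353, 363 and 362 in WT vehicle males, where the 2 ranges overlapped at their edge.

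Fluoxetine against vehicle used the same vehicle libraries as lithium, so its values stand beside those of lithium without a comparison. With the sexes averaged, 6 of 78 genes fell and 0 rose in WT, at backgrounds of 3.19% of tested genes higher and 1.99% lower, and the median was -0.06. In HT, limma and edgeR called 0, at a background of 0%, with 0 higher and 12 lower at an unadjusted p under 0.05 (7.25% of all tested genes in either direction) and a median of -0.05. Mrpl11 had 721, 789.6 and 911 normalised counts as lowest, median and highest of 10 WT fluoxetine libraries, against 818, 903 and 1100.0 in 10 WT vehicle libraries. The ranges overlapped, and the change was -0.22 ± 0.05, adjusted p = 0.00316. Mrps18c changed by -0.28 ± 0.07 (adjusted p = 0.0108), Mrpl40 by -0.22 ± 0.06 (adjusted p = 0.0181) and Mrpl3, the counterpart of bacterial L3, by -0.13 ± 0.04 (adjusted p = 0.0427). Mrps15 (-0.18, adjusted p = 0.0446) and Mrpl41 (-0.20, adjusted p = 0.0496) completed the list, and the calls of Mrpl3, Mrps15 and Mrpl41 each ended without any 1 of 12 or 13 libraries. In HT the genes with the smallest p were Mrps18c (-0.34, adjusted p = 0.109), Mrps22 (-0.16, adjusted p = 0.366) and Mrpl39 (-0.13, adjusted p = 0.441).

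In females under fluoxetine, 3 of 78 genes fell in HT, at backgrounds of 0.394% higher and 0.333% lower, and 13 fell and 1 rose in WT, at backgrounds of 6.48% lower and 5.66% higher. Both medians were -0.09. The summed level of 5 red cell markers was 3489 to 6069 normalised counts in HT fluoxetine females and 7651 to 17097 in HT vehicle females, without overlap. That of 6 markers of myelinating oligodendrocytes averaged 97413 ± 35934 in WT fluoxetine females and 151028 ± 14523 in WT vehicle females (SD, n = 5 each), with overlapping ranges. No marker of either list was at 0, and their part in the results was not tested. Mrpl11 had 889.6, 789, 837, 832 and 764 normalised counts in HT fluoxetine females, against 1135, 1088, 1026, 983 and 938 in HT vehicle females. No fluoxetine library reached the vehicle range (-0.33 ± 0.06, adjusted p = 0.00721). In WT, Mrpl11 had 911, 743, 797, 775 and 794 in fluoxetine females, against 1061, 1011, 1100.0, 837 and 994 in vehicle females. The highest fluoxetine library overlapped the lowest vehicle library (-0.31 ± 0.06, adjusted p = 0.00122).

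Mrps18c had 280.4, 283, 269, 261 and 229 normalised counts in HT fluoxetine females, against 373, 348, 380.2, 389.9 and 292 in HT vehicle females. The groups did not overlap (-0.43 ± 0.10, adjusted p = 0.0202). It had 243, 202, 275, 229.7 and 305 in WT fluoxetine females, against 373, 342, 390.5, 273 and 406 in WT vehicle females, with some overlap (-0.51 ± 0.10, adjusted p = 0.000603). Mrps22 had 353, 365, 407, 419.8 and 377 in HT fluoxetine females, all below the HT vehicle females given above (-0.32 ± 0.07, adjusted p = 0.00958). Mrpl32, which is cut to its mature form by a mitochondrial protease before assembly, had 359.7, 401, 389, 394 and 393 in WT fluoxetine females, against 502, 476, 478, 579.6 and 481 in WT vehicle females. Its ranges were apart (-0.37 ± 0.08, adjusted p = 0.00103). Mrpl11 and Mrps18c were lowered in females of both genotypes, which is 66.7% of the 3 in HT and 15.4% of the 13 in WT. The same overlap over all tested genes was not taken for fluoxetine, so these shares cannot be set against a background. A fit of the compared groups alone called 0 genes in HT females and 0 in WT females, and the HT count was 0 without HT fluoxetine female replicate 5.

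Fluoxetine's effect in WT differed between the sexes for 5 of 78 genes, 4 of them higher in males minus females, at backgrounds of 4.58% higher and 3.16% lower. Mrpl1, the counterpart of bacterial L1, had 385, 377, 380.2, 380.0 and 277 normalised counts in WT fluoxetine males, against 329.6, 349, 301, 303 and 302 in WT vehicle males. It had 366, 296, 362, 294 and 302 in WT fluoxetine females, against 421, 441, 395, 406 and 369 in WT vehicle females. Fluoxetine libraries were below vehicle libraries in females, and 4 of 5 were above them in males (difference 0.50 ± 0.12, adjusted p = 0.0102). Mrpl32 differed by 0.44 ± 0.11 (adjusted p = 0.0124), Mrps18c by 0.46 ± 0.14 (adjusted p = 0.0315) and Mrpl50 by 0.38 ± 0.11 (adjusted p = 0.0332).

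Mrpl4, the counterpart of bacterial L4, went the other way. It had 903, 913, 952, 1053 and 1046 normalised counts in WT fluoxetine males, against 1130.0, 996, 1116, 1133 and 1011 in WT vehicle males. It had 1123, 1342, 1156, 1303 and 1023 in WT fluoxetine females, against 1068, 1036, 939.6, 955 and 1002 in WT vehicle females. Both pairs of ranges overlapped. The rise in WT females was 0.24 ± 0.07 (adjusted p = 0.0235), and the difference between the sexes was -0.39 ± 0.11 (adjusted p = 0.0192). All 5 sex differences lost their calls with the GC and length correction. Among HT mice the sex difference gave 0 calls by limma and edgeR, at a background of 0.0277% higher, with 8 higher and 0 lower at an unadjusted p under 0.05 (6.62% of all tested genes in either direction); Mrpl11 had 0.38 (adjusted p = 0.214).

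In males, fluoxetine gave 0 calls by limma and edgeR among the 78 genes in both genotypes, at a background of 0% in HT and of 0.632% higher and 0.394% lower in WT. At an unadjusted p under 0.05 there were 0 higher and 1 lower in HT and 3 higher and 8 lower in WT, against 3.57% of all tested genes in HT and 15.3% in WT in either direction. Mrps18c in HT males stood at -0.25 (adjusted p = 1) and Mrpl43 in WT males at -0.21 (adjusted p = 0.113).

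**Figure D4:**
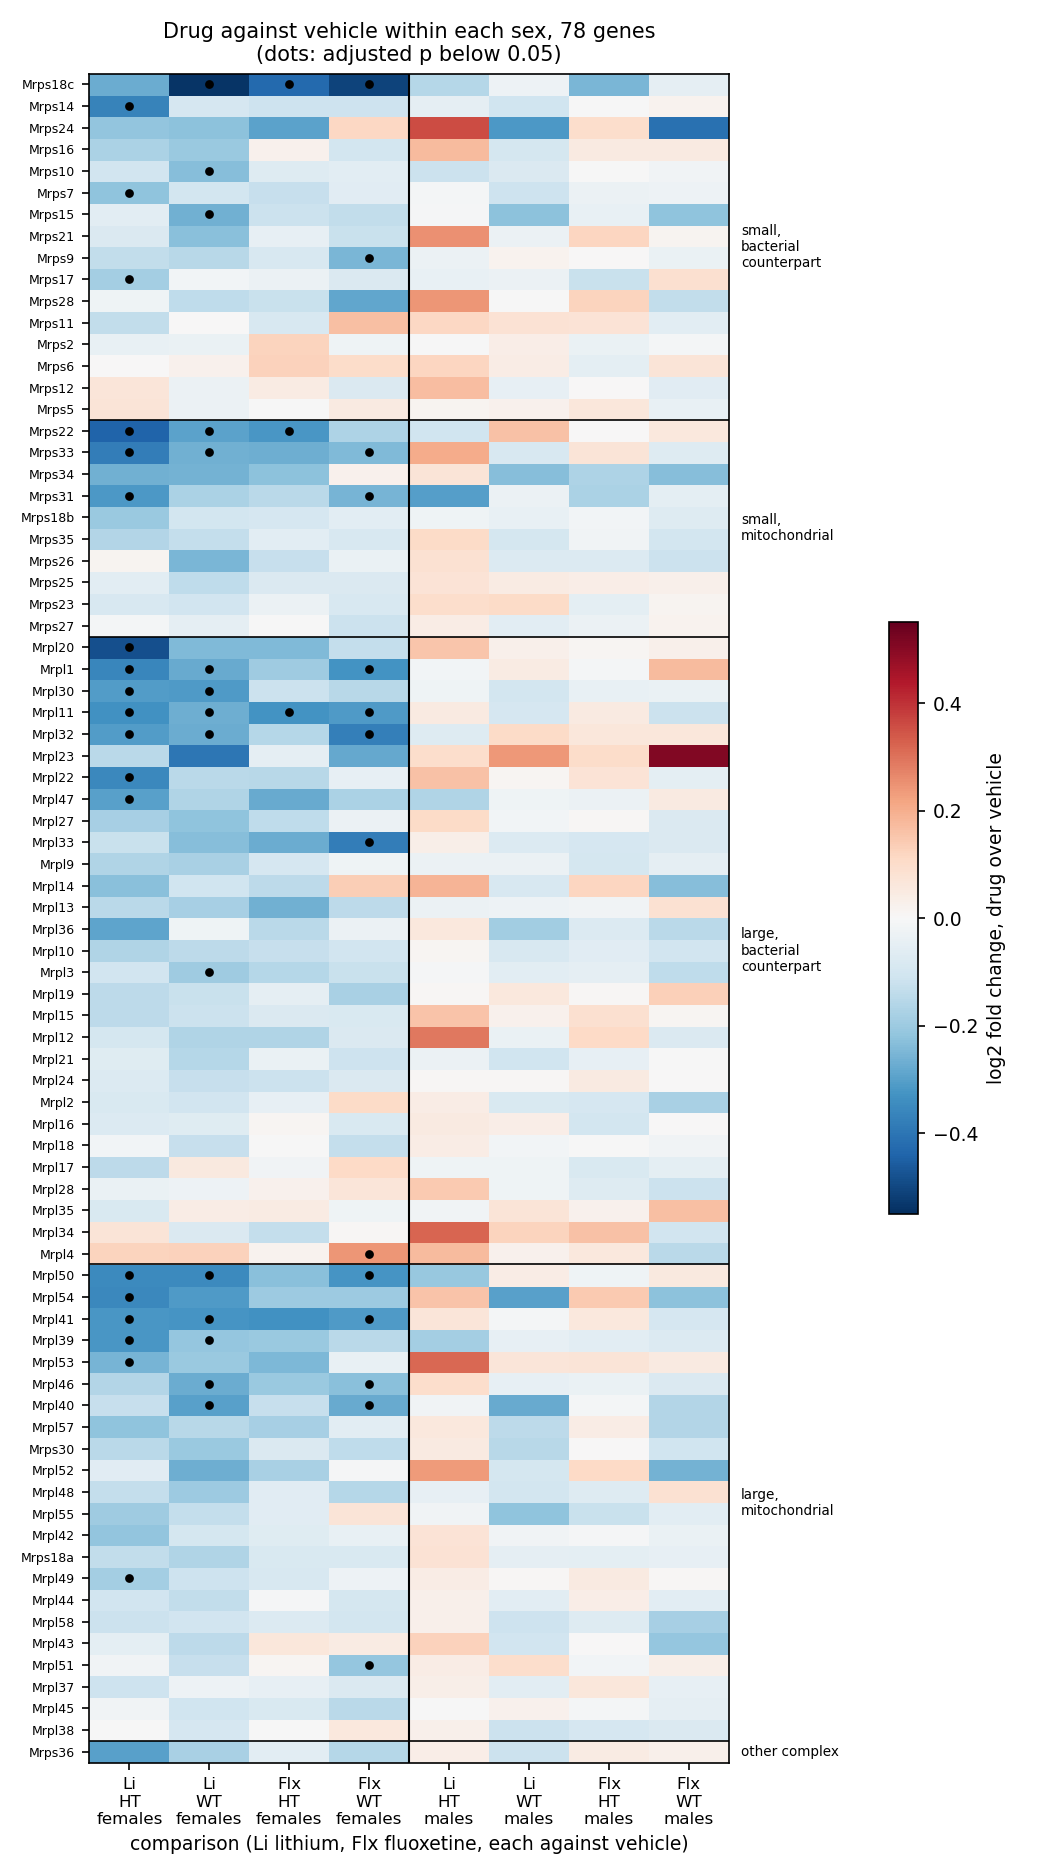
Log2 fold change of each of the 78 genes (rows, by role) under each drug against vehicle within genotype and sex (columns), with dots where the adjusted p was below 0.05. Dots stand in the female columns only, with 19 for lithium in HT and 15 for lithium in WT.

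The genotype itself moved none of these genes past the threshold. HT against WT gave 0 calls by limma and edgeR under vehicle, lithium and fluoxetine with the sexes averaged, each at a background of 0%. Medians were 0.00 under vehicle, 0.05 under lithium and 0.02 under fluoxetine, and at an unadjusted p under 0.05 there were 1 higher and 0 lower, 6 higher and 1 lower, and 2 higher and 1 lower in that order. Of all tested genes, 6.21%, 9.82% and 11.2% reached that p in either direction in the same order. Under vehicle, Mrps22 had 0.13 (adjusted p = 0.742), Mrpl52 had -0.17 (adjusted p = 0.781) and Mrps25 had -0.09 (adjusted p = 0.781). Under lithium, Mrps26 had 0.21 (adjusted p = 0.348), Mrpl39 had -0.12 (adjusted p = 0.394) and Mrps21 had 0.14 (adjusted p = 0.409). Under fluoxetine, Mrpl32 had 0.15 (adjusted p = 0.328), Mrpl4 had -0.11 (adjusted p = 0.431) and Mrpl50 had 0.11 (adjusted p = 0.442).

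Within vehicle females, HT against WT gave 0 calls by limma and edgeR at a background of 0%, with 3 higher and 0 lower at an unadjusted p under 0.05 (2.14% of all tested genes in either direction), and Mrpl20 stood at 0.22 (adjusted p = 1). In vehicle males it gave 0 calls by both, at backgrounds of 0.155% higher and 0.105% lower, with 1 higher and 5 lower unadjusted (2248 of all tested genes in either direction), and Mrps24, the counterpart of bacterial S3, stood at -0.45 (adjusted p = 0.224). The difference of these effects, males minus females, also gave 0 by both, with 0 higher and 3 lower unadjusted (8.73% of all tested genes in either direction) at a background of 0%, and Mrps24 stood at -0.64 (adjusted p = 0.389). The lithium effect in HT minus that in WT gave 0 calls by both, at backgrounds of 0.0111% higher and 0.00555% lower, with 8 higher and 2 lower unadjusted (9.5%). Mrps22 had -0.21 (adjusted p = 0.357) in that test. For fluoxetine the same test gave 0 calls by both, at a background of 0%, with 0 higher and 0 lower unadjusted (3.52%), and Mrps28 stood at 0.21 (adjusted p = 1).

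GC content of the transcript went with the lithium effect in HT. Over the 78 genes the Pearson correlation of GC content with the log2 fold change was 0.55 in HT and -0.04 in WT, given as a description across genes. Of the 39 genes poorer in GC, 8 fell in HT, with a median of -0.08, and of the 39 richer ones 0 fell, with a median of -0.02. Over all tested genes in the same 2 ranges of GC content, 8.37% of the poorer fell (median -0.06) and 0.771% of the richer (median 0.07), and the correlation was 0.31. In WT, 8 of the poorer and 6 of the richer genes fell, beside 4.93% and 4.35% of all tested genes. In HT females the correlation was 0.36 with 14 poorer and 5 richer genes called, beside 7.68% and 2.01% of all tested genes. In WT females it was 0.16 with 10 and 5, beside 4.19% and 1.25%. Under fluoxetine it was 0.46 in WT females and -0.43 in WT males. The rank correlation of length with the lithium effect was -0.16 in HT and 0.20 in WT. Within libraries, the slope of all genes' deviations on GC content, per 10 percentage points, was 0.0537 ± 0.137 in HT lithium females and -0.0427 ± 0.0463 in HT vehicle females (SD, n = 5 each). HT lithium female replicate 5, the library low in mitochondrially encoded genes, had 0.254, and without it the mean in HT lithium females was 0.00357 ± 0.0915 (SD, n = 4). The slope on length, per doubling, was 0.0157 ± 0.0313 in HT lithium females and -0.0435 ± 0.0265 in HT vehicle females (SD, n = 5 each). It was 0.0345 ± 0.0104 in WT lithium females (n = 4) and -0.0201 ± 0.0321 in WT vehicle females (n = 5). Short transcripts thus stood higher relative to long ones in vehicle females than in lithium females of the same genotype, on average. WT vehicle males, where the 78 genes did not stand high, had -0.0306 ± 0.0161 (n = 5).

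Removing each library's trend with GC content and length lowered most counts. Under lithium with the sexes averaged, 2 genes were called lower in HT, at a background of 1.42%, and 7 in WT, at 3.94%. In HT these were Mrpl39 (-0.20, adjusted p = 0.00724) and Mrps7 (-0.16, adjusted p = 0.0196), which was not called before. In WT they were Mrpl3, Mrpl11, Mrpl30, Mrpl40, Mrpl48, Mrpl54 and Mrps15, all called before. In females under lithium, 12 were called in HT, at 2.65%, and 4 in WT, at 1.33%, of which 11 and 4 had been called before. Those in HT females were Mrpl1, Mrpl11, Mrpl20, Mrpl22, Mrpl32, Mrpl39, Mrpl50, Mrpl54, Mrps7, Mrps14 and Mrps22, and those in WT females were Mrpl3, Mrpl11, Mrpl50 and Mrps18c. Under fluoxetine, 3 were called in WT with the sexes averaged, at 1.32%, 6 in WT females, at 1.64%, and 1 in HT females, at 0.0999%, which was Mrpl11 (-0.32, adjusted p = 0.0155). Medians under lithium were then -0.10 in HT females and -0.11 in WT females.

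**Figure D5:**
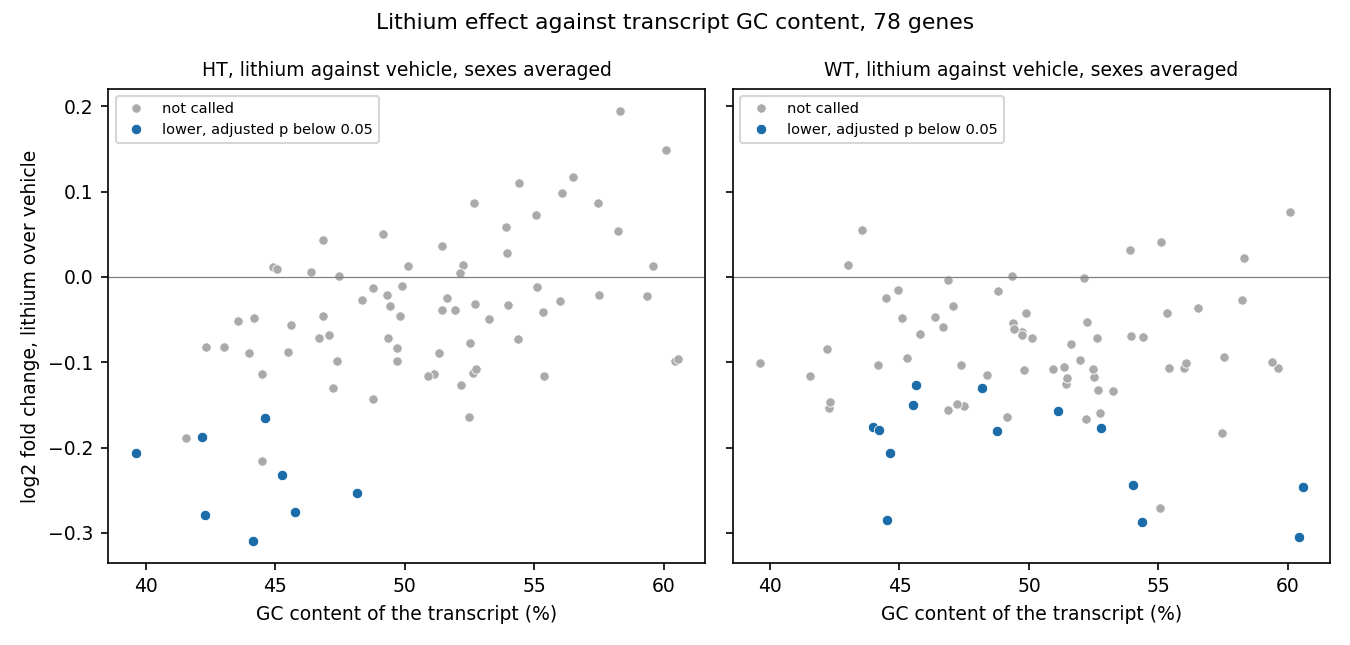
GC content of the longest protein-coding transcript (percent) against the log2 fold change under lithium with the sexes averaged, for the 78 genes, HT on the left and WT on the right. In HT the 8 called genes are all among the 39 poorer in GC, and in WT the 14 called genes are 8 poorer and 6 richer ones.

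Promoter letters and neighbours were set beside the lithium effects. In HT females, 4 of 25 genes with ETS letters were called lower (median -0.12), and 14 of 44 without them (median -0.16); in WT females it was 4 of 25 (median -0.16) and 11 of 44 (median -0.15). With YY1 letters it was 3 of 12 in HT females (median -0.16), and 15 of 57 without them (median -0.14), and in WT females 1 of 12 (median -0.07) and 14 of 57 (median -0.17). With relaxed NRF1 letters it was 3 of 14, and 15 of 55 without them, in HT females, and 3 of 14 and 12 of 55 in WT females. With SP1 letters it was 8 of 34, and 10 of 35 without them, in HT females, and 8 of 34 and 7 of 35 in WT females. For each of these 4 sets of letters, the order of the medians with and without them was opposite in HT and WT females. Of the head-to-head neighbours, 22 were tested. In HT with the sexes averaged, 3 of them rose and 3 fell, with a median of 0.05, beside 5.06% of all tested genes higher and 4.7% lower. In 2 of the pairs both genes fell. These were Mrpl32 with Psma2 (-0.20) and Mrpl30 with Mitd1 (-0.29), a gene acting in cell division. In WT, 5 neighbours rose and 0 fell, with a median of 0.04, beside 7.05% of all tested genes higher and 4.65% lower. The 5 were the neighbours of Mrpl41, Mrpl44, Mrpl50, Mrpl51 and Mrps7. Psma2 fell in females too, by 0.39 in HT (adjusted p = 2.91e-05) and by 0.26 in WT, where Mrpl32 also fell.

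Other genes of mitochondrial gene expression moved in both directions. Their changes, here and in the next paragraph, are from the fit without the correction for GC content and length. Polrmt, the mitochondrial RNA polymerase, had 704, 878 and 949 normalised counts in HT lithium libraries, against 627, 690.1 and 797 in HT vehicle libraries. The ranges overlapped, and it rose by 0.29 ± 0.06 (adjusted p = 0.000932). In WT it rose by 0.25 ± 0.06 under lithium (adjusted p = 0.0015) and by 0.24 ± 0.05 under fluoxetine (adjusted p = 0.00568). Polg, the mitochondrial DNA polymerase, rose by 0.16 in HT (adjusted p = 0.00478) and by 0.12 in WT (adjusted p = 0.0184) under lithium. Tfb2m, which helps that RNA polymerase to start, had 505, 569 and 641 in HT lithium libraries, against 625, 663 and 738 in HT vehicle libraries, with a narrow overlap (-0.25 ± 0.07, adjusted p = 0.0157). With these, 2 of 9 transcription genes rose and 1 fell in HT under lithium, and 2 rose and 0 fell in WT. Backgrounds were 5.06% of tested genes higher and 4.7% lower in HT, and 7.05% higher and 4.65% lower in WT. The same backgrounds apply to the other short lists below.

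Ptcd3, a small-subunit protein outside the Mrps names, had 1064, 1170.3 and 1260.2 normalised counts in HT lithium libraries, against 1278, 1316 and 1388 in HT vehicle libraries. No values overlapped (-0.20 ± 0.05, adjusted p = 0.00938), and it was the 1 called of 5 other subunits. Among 17 mitochondrial aminoacyl-tRNA synthetases, Lars2 rose by 0.81 ± 0.19 (adjusted p = 0.00377) in HT under lithium. Its lowest, median and highest normalised counts were 6969, 9400 and 13472 in HT lithium libraries. They were 2863, 4840 and 8361 in HT vehicle libraries, so the ranges overlapped. Iars2 changed by -0.13 (adjusted p = 0.0394) in HT under lithium, and Pars2 by -0.26 (adjusted p = 0.0471) in WT. Of 13 translation factors, Gfm1, an elongation factor, rose by 0.14 in WT under lithium (adjusted p = 0.0277). Of 23 assembly and rRNA modification genes, Ptcd1 rose by 0.19 in WT under lithium (adjusted p = 0.00759).

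Genes named for the cytosolic ribosome and genes of the respiratory chain stood as follows under lithium, without the GC and length correction. The 93 cytosolic genes were taken by symbol alone (Rpl or Rps and a digit, Rplp and Rpsa). That form also fits kinase genes named Rps6k, which do not encode ribosomal proteins and were not removed. Of all tested genes, 5.06% were called higher and 4.7% lower in HT, and 7.05% higher and 4.65% lower in WT. Within females, 4.94% of all tested genes were called lower in HT and 2.77% in WT. In HT, 2 of these 93 genes rose and 2 fell, with a median of 0.03. In WT 0 rose and 20 fell, with a median of -0.10. In females 14 of them fell in HT (median -0.13) and 17 in WT (median -0.16). Of 82 nuclear-encoded oxidative phosphorylation genes, 1 rose and 7 fell in HT (median 0.02), and 0 rose and 7 fell in WT (median -0.06). In females 20 of these fell in HT (median -0.14) and 8 in WT (median -0.12). The lithium effect in HT males minus that in HT females had a median of 0.30 for the 93 genes taken by symbol. It was 0.32 for oxidative phosphorylation genes, beside 0.18 for the 78 genes. Of 13 protein genes of mitochondrial DNA, which the mitochondrial ribosome translates, 0 were called in any drug comparison with the sexes averaged. Their median under lithium was -0.18 in HT and -0.04 in WT. The HT value includes HT lithium female replicate 5, at -1.57 log2 units from the median library in mitochondrially encoded genes. The other HT lithium females lay between -0.331 and 0.562. A median without that library is not given here.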

How the data were processed

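Per the labels' protocols, libraries were strand-specific (TruSeq Stranded mRNA). The authors deposited 1 table of a signal per gene, in which each library's counts are divided by a single size factor. Its values are called normalised counts here. Salmon 0.11.2, R 3.6.0, DESeq2 1.19.11 and GRCm38 are named, without role or order, per the submitters' processing notes. Of 59 columns, 3 matched no sample and were left out. Of the 57 labelled samples, 56 were matched to a column; the remaining sample, a WT lithium female, was not analysed here. Whole reads were recovered by dividing each library by its smallest value above 0 (100% of values within 1e-06 of a whole number). In 5 libraries that value lay within 1.10% of 1, and there 0% of the deposited values were whole themselves. No pair of libraries within a group agreed within sampling noise (chi-square per degree of freedom of at least 4.71 over 105 pairs).

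Values were analysed as log2(value + 1), which understates changes of low genes. Genes with at least 10 in at least 3 libraries (18026) entered 1 limma-trend fit of the 12 groups in limma 3.58.1 under R 4.3.3, which left 44 residual degrees of freedom. The 24 comparisons were contrasts of group means. The fit was tested on simulated data. Length and GC content are those of the longest protein-coding transcript in GENCODE for GRCm38.

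The members and lists were chosen with earlier results of these data known. Genes named are up to 6 called with the smallest p per comparison with the sexes averaged (3 as values where fewer than 5 were called), up to 3 in each comparison within a sex or of a difference, up to 3 called per other list, and the extremes of level, length and GC content. The remaining called genes were listed after their values were seen. Beyond this rule, so were Mrps36, the head-to-head neighbours described, and the values of Mrps18c, Mrps22 and Mrpl50 given beside comparisons whose rule does not name them.

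Alternatives were edgeR 4.0.16 on the recovered reads, TMM factors, no filter, the compared groups only, a pseudocount of 5, a replicate block (number as a factor), GC and length corrected within each library by splines with 4 degrees of freedom each (also with the block or the olfactory level), the olfactory level as a covariate, the libraries more than 5 median absolute deviations apart left out, and each library left out in turn.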

Additional observations from a re-analysis of the deposited data

Results flagged for a closer look

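In 13 sets of values (12 genes and the mean level of the 78), 9 single libraries lay far from the others of their group; chance flags about 1 in 20 groups, and 143 were examined. Mrpl4 had 1103 normalised counts in HT fluoxetine female replicate 5, against 952 to 986 in the other libraries of the group. Mrpl11 had 790.1 in HT fluoxetine male replicate 2, against 850.4 to 873. Mrpl40 had 572 in HT lithium female replicate 5, the library low in mitochondrially encoded genes, against 403 to 449.6. Mrps15 had 373 in HT lithium male replicate 1, against 475 to 493. The mean level was 0.0776 in HT lithium male replicate 2, against -0.00179 to 0.00741. Mrpl32 had 359.7 in WT fluoxetine female replicate 1, against 389 to 401, and 579.6 in WT vehicle female replicate 4, against 476 to 502. Mrpl1 had 277 in WT fluoxetine male replicate 5, against 377 to 385, and Mrpl40 had 396 in WT fluoxetine male replicate 2, against 440.5 to 453.

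A drug effect differed between males and females, by the test of the difference itself, for 7 genes. For lithium in HT, males minus females, these were Mrps33 (0.58) and Mrpl20 (0.64). For fluoxetine in WT they were Mrpl1 (0.50), Mrpl32 (0.44), Mrps18c (0.46), Mrpl50 (0.38) and Mrpl4 (-0.39). Of all 18026 tested genes, the same test called 31 for lithium in HT and 1395 for fluoxetine in WT. Calls for fluoxetine in WT were thus no more frequent among the mitochondrial ribosomal protein genes than among all tested genes. None of the 7 genes kept its call after the GC and length correction.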

How the results depend on the processing

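No named gene changed direction, in the comparison it was named for, under any alternative run. Some medians over the 78 genes that lay near 0 changed sign with the GC and length correction. For fluoxetine in WT males, the medians of the genes richer and poorer in GC were -0.0783 and -0.0347 before the correction. The median of the 78 was 0.00481 after it. With the GC and length correction the counts of called genes were 2 for lithium in HT (8 as reported), 7 in WT (14), 12 in HT females (19) and 4 in WT females (15), 3 for fluoxetine in WT (6), 6 in WT females (14) and 1 in HT females (3), and 0 for the sex differences under lithium in HT (2) and fluoxetine in WT (5). With that correction and the replicate block in 1 fit they were 3, 6, 12, 3, 2, 7, 1, 0 and 0 in that order. The replicate block alone gave 7, 14, 19, 15, 4, 14, 3, 2 and 5, and 1 for lithium in WT males (0). Libraries with the same number had a median correlation of -0.00272 over 289 pairs, against -2.92e-05 over 1146 others. Single pairs ran from -0.441 to 0.452 and from -0.490 to 0.523 in that order. Whether some libraries with the same number share a litter or a batch was not tested. The compared groups only gave 2 for lithium in HT females, 4 in WT females, 2 for fluoxetine in WT, 0 in WT females and 0 in HT females, and 0 and 2 for the sex differences under lithium in HT and fluoxetine in WT. With the olfactory covariate the counts were 15 for lithium in HT, 1 in WT males, 14 for fluoxetine in WT, 3 in WT males and 5 in HT females, and 1 for the sex difference under lithium in HT. With GC, length and the olfactory level together they were 2 for fluoxetine in WT males, 1 in HT females and 0 for both sex differences. Without the 2 libraries apart they were 5 for lithium in HT, 1 in WT males and 1 for the sex difference under lithium in HT. edgeR gave 5 for fluoxetine in HT females. The cause was not tested.

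Leaving out 1 library at a time gave 4 to 12 calls for lithium in HT, 8 to 15 in WT, 12 to 23 in HT females, 5 to 13 in WT females and 0 to 1 in WT males. For fluoxetine it gave 0 to 1 in HT, 2 to 8 in WT, 0 to 6 in HT females, 6 to 16 in WT females and 0 to 1 in WT males. The sex differences gave 0 to 5 under lithium in HT and 2 to 9 under fluoxetine in WT, and the other comparisons 0 to 0. Single libraries moved a count by over 1.5 times as follows. Lithium in HT gave 4 without HT vehicle male replicate 3, and 5 without HT lithium male replicates 3 or 4, HT vehicle female replicate 1 or HT vehicle male replicate 2. In WT it gave 8 without WT lithium female replicate 1. In HT females it gave 12 without HT vehicle female replicate 2. In WT females it gave 5 without WT lithium female replicate 4, 7 without WT lithium female replicate 1 or WT vehicle female replicate 3, 8 without WT lithium female replicate 2 and 9 without WT vehicle female replicate 1. In WT males it gave 1 without WT lithium male replicates 3 or 5 or WT vehicle male replicate 1. Fluoxetine in WT gave 2 without WT fluoxetine female replicate 2, and 3 without WT fluoxetine male replicate 2, WT vehicle female replicate 3 or WT vehicle male replicates 4 or 5. In HT it gave 1 without HT vehicle female replicate 5. In WT females it gave 6 without WT fluoxetine female replicate 4, 7 without replicate 2 and 9 without WT vehicle female replicate 3. In HT females it gave 0 without HT fluoxetine female replicate 5, and 1 and 6 without HT vehicle female replicates 3 and 5. In WT males it gave 1 without WT fluoxetine male replicate 5. The sex difference under lithium in HT gave 0 without HT vehicle male replicates 2 or 3, 5 without HT vehicle female replicate 5, and 1 without HT lithium female replicates 2 or 3, HT lithium male replicates 1, 2 or 3 or HT vehicle female replicates 2, 3 or 4. That under fluoxetine in WT gave 2 without WT fluoxetine female replicate 2 or WT fluoxetine male replicate 1, 3 without WT fluoxetine female replicate 4, WT vehicle female replicate 1 or WT vehicle male replicates 3 or 4, 8 without WT vehicle male replicate 2 and 9 without WT fluoxetine female replicate 3. Groups of 3 to 5 limit what can be called.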
